A study of Homo sapiens with 2 samples.

Results

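The lysosomal proteases followed here are cathepsins A, B, C, D, H, K, L, S and Z, encoded by CTSA, CTSB, CTSC, CTSD, CTSH, CTSK, CTSL, CTSS and CTSZ, and CPVL, the vitellogenic-like carboxypeptidase. These 10 genes were taken by name from the 60880 gene rows of the deposited table. Their RNA was read in SUM-159 cells, an established human triple-negative breast cancer line, in 1 library of PD-L1L2-SE deficient cells and 1 library of sgVector control cells. The element missing from the deficient cells is the super-enhancer that the study links to PD-L1 and PD-L2. The sources do not say which guide sequences were used or whether the deficient cells were 1 clone or a pool. With 1 library in each group there is no replicate check of any difference, and the genes were selected on their RPKM in these same libraries, so all values below are descriptions.

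Lysosomal proteases break down proteins delivered by endocytosis and autophagy in an acidic compartment. Most cathepsins are cysteine proteases of the papain type, cathepsin D is an aspartic protease, and cathepsin A and CPVL belong to the serine carboxypeptidases. They are made as precursors and most are carried to the lysosome by mannose 6-phosphate receptors. Cystatins and some intracellular serpins inhibit the cysteine cathepsins. In tumours, cathepsins are also known as secreted enzymes that act on extracellular matrix.

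The deficient library held 16381546 reads on genes and the sgVector library 16206675. RPKM divides a gene's reads by its length in kilobases and by the library's reads on genes, in units of 1000000. CD274, which encodes PD-L1, stood at 0.698 RPKM in the deficient library and 7.16 RPKM in the sgVector library. Markers of the line showed a mesenchymal pattern, with VIM at 389.7 RPKM in deficient cells and 746 RPKM in sgVector cells, and CDH1 with 0 reads against 1 read. The oestrogen receptor gene ESR1 had 6 reads in deficient cells and 2 reads in sgVector cells. ERBB2, with the highest log2 ratio of these markers past 1 RPKM, was at 9.996 RPKM in deficient cells and 7.02 RPKM in sgVector cells. Macrophage and other leukocyte markers were near 0. The 11 in the table other than CD14 summed to 21 reads in deficient cells and 27 reads in sgVector cells, PTPRC being at 0 reads in deficient cells and 4 reads in sgVector cells and TYROBP and AIF1 at 0 in both. CD14 itself stood at 15.4 RPKM in deficient cells and 11.03 RPKM in sgVector cells.

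CPVL and CTSH, both scarce, were the only members more than 2-fold apart between the libraries, and both were higher in the deficient library. The abundant cathepsins lay within 1.5-fold of their sgVector level. CTSD was higher in deficient cells, CTSL and CTSC were higher by smaller amounts, and CTSA and CTSZ were lower. Of the 10 genes, 8 reached the floor used for counts, a mean over both libraries of at least 1 RPKM, while CTSH (mean 0.919 RPKM) and CTSS (mean 0.421 RPKM) lay under it. A gene was called past 2-fold when the log2 ratio of (RPKM + 0.1), deficient over sgVector, was at least 1 or at most -1. Of the 8 genes past the floor, 1 was higher, against 3.03% of all 13552 genes past the floor, and 0 were lower, against 4.69%. Of the 10576 protein-coding genes past the floor, 222 were higher and 219 lower. The median log2 ratio of the 8 genes was 0.16, with 5 above 0 and 3 below. It was -0.051 over all genes past the floor and -0.034 over the protein-coding ones. The 1 higher member was CPVL, which reached the floor only through the deficient library. It had 2.87 RPKM there and 0.148 RPKM in the sgVector library.

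**Figure D1:**
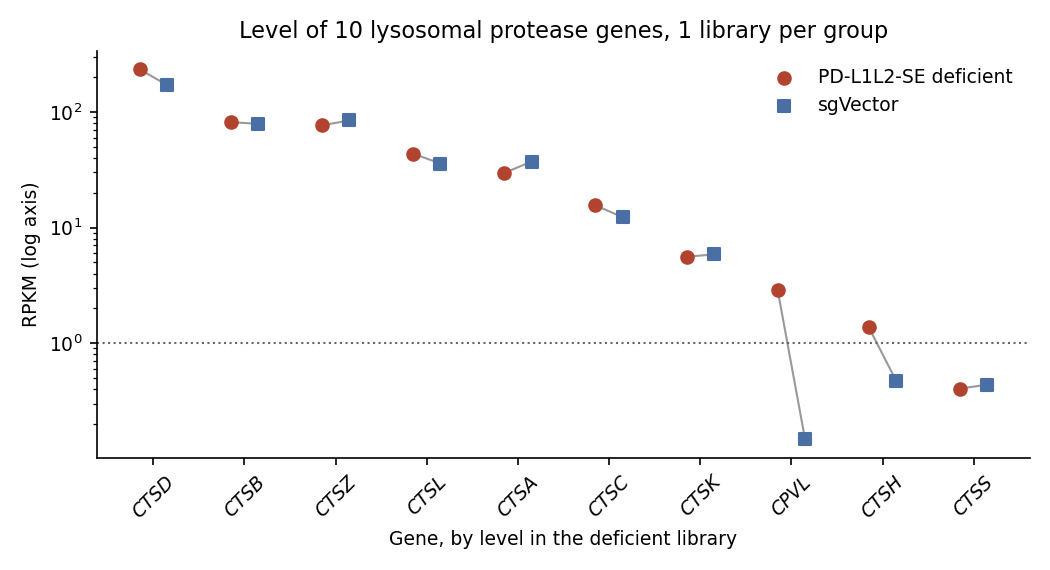
Level of each gene in RPKM on a log axis, with the deficient library as circles, the sgVector library as squares and a dotted line at 1 RPKM. The lines join the libraries, and CPVL and CTSH show the widest gaps, with CPVL at 2.87 RPKM in deficient cells and 0.148 RPKM in sgVector cells.

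CTSD had the highest level in both libraries, and the lowest was CTSS in deficient cells, at 0.404 RPKM, and CPVL in sgVector cells, at 0.148 RPKM. CTSD had 234 RPKM in deficient cells and 171 RPKM in sgVector cells. CTSB had 81.7 RPKM in deficient cells and 79.1 RPKM in sgVector cells, and CTSZ 76.7 RPKM in deficient cells and 84.5 RPKM in sgVector cells. These neighbours in the order traded places, and their values lie close together. CTSL had 43.6 RPKM in deficient cells and 35.8 RPKM in sgVector cells, and CTSA 29.8 RPKM in deficient cells and 37.2 RPKM in sgVector cells, so these genes traded places as well. CTSC and CTSK followed in both libraries. CPVL stood below every other member in sgVector cells and above CTSH and CTSS in deficient cells.

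The summed level of the 10 genes was 492 RPKM in deficient cells and 427 RPKM in sgVector cells. Nearly all of that difference was CTSD. The other 9 genes summed to 258 RPKM in deficient cells and 256 RPKM in sgVector cells. CTSD took 47.6% of the sum in deficient cells and 40.1% in sgVector cells. The 7 cysteine cathepsins summed to 225 RPKM in deficient cells and 218 RPKM in sgVector cells, or 45.7% of the members' sum in deficient cells and 51.2% in sgVector cells. CTSA and CPVL, the serine carboxypeptidases, took 6.63% in deficient cells and 8.74% in sgVector cells.

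**Figure D2:**
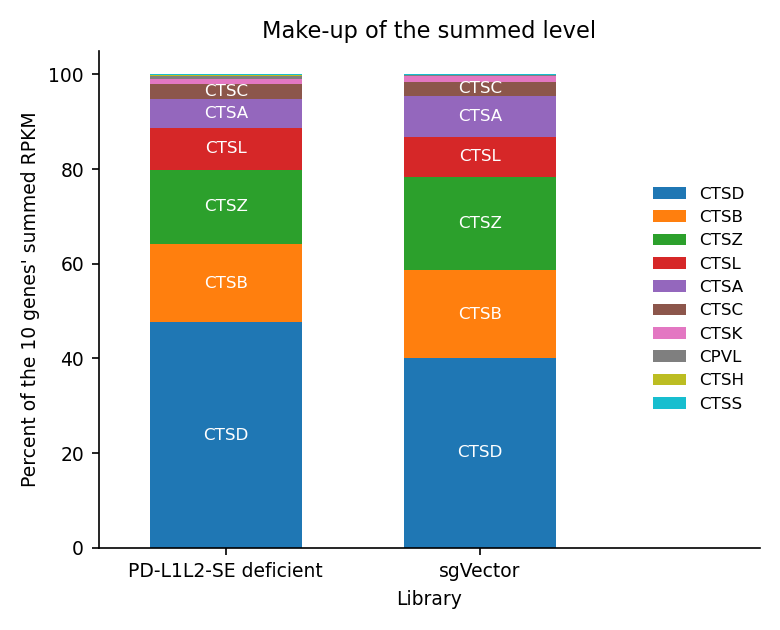
Percent of the summed RPKM of the 10 genes taken by each gene, as stacked bars with the deficient library left of the sgVector library. CTSD fills 47.6% of the deficient bar and 40.1% of the sgVector bar.

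CPVL encodes a serine carboxypeptidase first described in human macrophages. In hg19, the build of the deposited coordinates, CPVL (ENSG00000106066) lies on chromosome 7 from 29034847 to 29235067 on the minus strand. It had 157 reads in deficient cells and 8 reads in sgVector cells, 2.87 RPKM against 0.148 RPKM. The ratio of read shares was 19.4 (95% counting interval 9.61 to 45.8). The log2 ratio with the pseudocount of 0.1 RPKM was 3.58, and it was 1.75 with a pseudocount of 1 RPKM, since the sgVector level lies far below 1 RPKM. Of 10576 protein-coding genes past the floor, 6 had a higher log2 ratio. CPVL passed that floor only through its level in the deficient library. The macrophage markers named above, other than CD14, were near 0 in both libraries. In bulk RNA, more cells with CPVL transcripts and more transcripts per cell cannot be told apart.

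The genes around CPVL did not share its ratio. Of 10 other protein-coding genes lying at least partly within 1 Mb, 6 passed the floor, and their median log2 ratio was 0.16 with 4 above 0. CREB5, a transcription factor gene and the nearest expressed gene on the side of lower coordinates, 169 kb away, had 2.82 RPKM in deficient cells and 5.90 RPKM in sgVector cells, a log2 ratio of -1.04. SCRN1, the nearest expressed gene on the other side at 725 kb, had 35.4 RPKM in deficient cells and 28.8 RPKM in sgVector cells, a log2 ratio of 0.30. The antisense genes CPVL-AS1 and CPVL-AS2, looked up for the strand question after the values were seen, had 0 reads in both libraries. The sources do not say whether counting used strand.

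**Figure D3:**
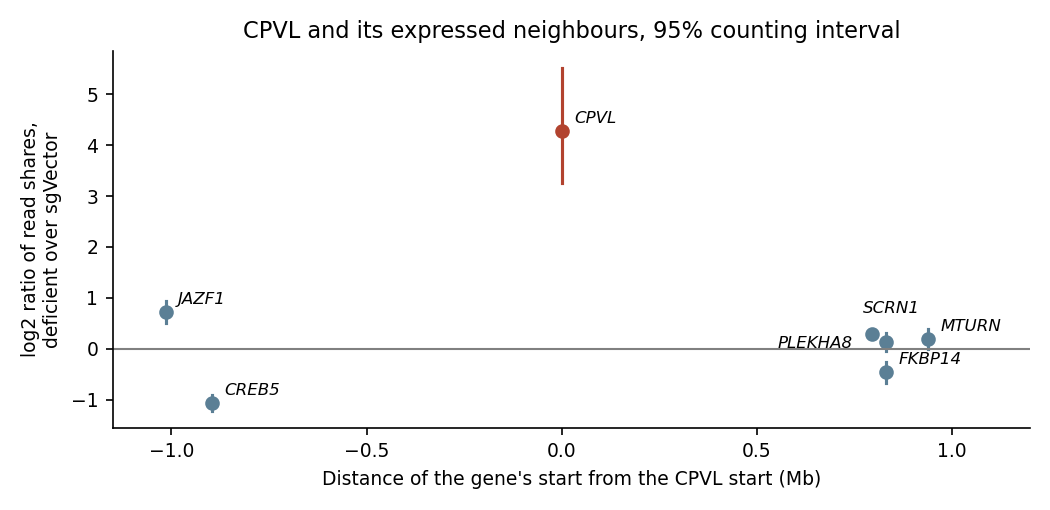
Log2 ratio of read shares, deficient over sgVector, for CPVL and the 6 expressed protein-coding genes around it, against the distance of each gene's start from that of CPVL in Mb, with 95% counting intervals as bars. CPVL stands far above its neighbours, whose ratios lie on both sides of 0.

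The protein-coding genes with a log2 ratio most like that of CPVL, among 11756 others with at least 50 reads over both libraries, were GPC6, CHST1 and OR52E2. Likeness here rests on 1 value per gene from 2 libraries. The heparan sulfate proteoglycan gene GPC6 stood at 3.55, the sulfotransferase gene CHST1 at 3.37 and the olfactory receptor gene OR52E2 at 3.37. These values rest on few sgVector reads, 13 for GPC6, 6 for CHST1 and 5 for OR52E2. In deficient cells the reads were 268, 116 and 67 in that order. Counting intervals of the ratio of read shares were wide. They were 11.7 to 38.8 for GPC6, 8.53 to 53.2 for CHST1 and 5.41 to 42.2 for OR52E2.

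CTSH encodes cathepsin H, a cysteine protease that acts mainly as an aminopeptidase. CTSH (ENSG00000103811) lies on chromosome 15 from 79213400 to 79241916 on the minus strand in hg19. It had 132 reads in deficient cells and 45 reads in sgVector cells, 1.37 RPKM against 0.471 RPKM. The ratio of read shares was 2.902 (95% counting interval 2.05 to 4.17), and the log2 ratio with the pseudocount of 0.1 was 1.36. With a pseudocount of 1 RPKM it was 0.69. With the floor lowered to 0.5 RPKM, every member but CTSS passed it and CTSH joined CPVL. Then 2 members were past 2-fold higher, against 3.97% of 16180 genes, and 0 were lower, against 7.03%. CTSH and CPVL each reached that floor only through the deficient library, being under 0.5 RPKM in sgVector cells. The nearest expressed genes, MORF4L1 and TMED3, had log2 ratios of -0.070 and -0.21. Of 11 expressed protein-coding neighbours within 1 Mb, 6 were above 0 and 1 was past 2-fold, with a median of 0.21.

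CTSD encodes cathepsin D, the main aspartic protease of lysosomes, and is the most abundant of the members. CTSD (ENSG00000117984) lies on chromosome 11 from 1773982 to 1785803 on the minus strand in hg19. It had 12002 reads in deficient cells and 8676 reads in sgVector cells, a ratio of read shares of 1.37 (95% counting interval 1.33 to 1.41). Its log2 ratio of 0.45 was exceeded by 11.2% of protein-coding genes past the floor. Of 18 expressed protein-coding neighbours within 1 Mb, 2 were above 0, with a median of -0.19. A correction for GC content and length brought CTSD to 0.70.

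Counting around CTSD is uncertain in part. Of its 3126 exonic bases, 1304 (41.7%) are shared with a gene on the same strand, ENSG00000250644, which had 20 reads in each library. The sources do not say how reads in the shared part were assigned. CTSD had 12002 reads in deficient cells and 8676 reads in sgVector cells. Beside the 20 of the other gene, either few reads fell in the shared part or they were not counted to both genes. If shared reads were left out of CTSD, its RPKM and its share of the members' sum are understated in both libraries. The antisense gene PRADX shares 493 bases and had 113 reads in deficient cells and 81 reads in sgVector cells, a ratio of 1.38 (95% counting interval 1.03 to 1.86) beside the 1.37 of CTSD. Without strand, reads of such a pair cannot be told apart.

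CTSL, CTSC and CTSB are cysteine cathepsins of broad expression. CTSL, a strong endopeptidase, had 1690 reads in deficient cells and 1374 reads in sgVector cells, a ratio of 1.22 (95% counting interval 1.13 to 1.31). The 6 CTSL pseudogenes in the table had 0 reads together in deficient cells and 3 reads in sgVector cells. CTSC, the dipeptidyl peptidase that activates granule proteases of leukocytes, had 2920 reads in deficient cells and 2270 reads in sgVector cells, a ratio of 1.27 (95% counting interval 1.204 to 1.34). The GC and length correction brought CTSC from a log2 ratio of 0.35 to 0.086. CTSB, which cleaves both inside chains and at their carboxyl end, had 9936 reads in deficient cells and 9520 reads in sgVector cells, a ratio of 1.03 (95% counting interval 1.004 to 1.06). In hg19 CTSL lies on chromosome 9 from 90340434 to 90346308 and CTSC on chromosome 11 from 88026760 to 88070955.

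CTSA and CTSZ were lower in the deficient library. CTSA encodes the protective protein that holds beta-galactosidase and neuraminidase in a complex. It had 2854 reads in deficient cells and 3526 reads in sgVector cells and was 1.25-fold lower (95% counting interval 1.19 to 1.31). Of the genes of its partners, GLB1 had a ratio of 1.01 (0.933 to 1.09), and NEU1 was higher in deficient cells, at 1.198 (1.07 to 1.34). CTSZ, a carboxypeptidase, had 2562 reads in deficient cells and 2791 reads in sgVector cells and was 1.10-fold lower (95% counting interval 1.04 to 1.16). Its log2 ratio of -0.14 became 0.066 with the GC and length correction, so its direction depends on that choice. On chromosome 20 in hg19, CTSA lies from 44518783 to 44527459 and CTSZ from 57570240 to 57582302. NEURL2 shares 1038 of the exonic bases of CTSA on the other strand and had 4 reads in each library.

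CTSK and CTSS lie 30.3 kb apart on chromosome 1. CTSK encodes the collagen-cleaving cathepsin of osteoclasts. It had 173 reads in deficient cells and 179 reads in sgVector cells, a ratio of 0.956 (95% counting interval 0.771 to 1.19). Its log2 ratio of -0.064 was 0.011 with trimmed-mean (TMM) scaling. CTSS encodes the cathepsin that trims the invariant chain of MHC class II in antigen-presenting cells. It had 28 reads in deficient cells and 30 reads in sgVector cells, a ratio of 0.923 (95% counting interval 0.532 to 1.599). A difference within that interval was not detectable for CTSS at this depth. In hg19 CTSK lies from 150768684 to 150780799 and CTSS from 150702672 to 150738433, and the closest expressed genes, GOLPH3L and ARNT, had log2 ratios of -0.088 and 0.25. CTSK and CTSS each had 44 expressed neighbours within 1 Mb, with a median of -0.027 and 1 past 2-fold for either gene. The median was 0.086 over 24 neighbours of CTSA, 0.084 over 11 of CTSZ, 0.46 over 3 of CTSL and -0.30 over 5 of CTSB, and CTSC had 1, at 0.59. Past 2-fold were 2 neighbours of CTSA, 1 of CTSZ, 1 of CTSL and 0 of CTSB and CTSC.

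Genes of the cells in which CTSK and CTSS are best known were scarce. Of 6 osteoclast markers, TNFRSF11A alone passed the floor, at 3.38 RPKM in deficient cells and 4.83 RPKM in sgVector cells, and DCSTAMP, OCSTAMP and CALCR had 0 reads in both libraries. Of 11 genes of MHC class II antigen processing, HLA-DMA alone passed the floor, at 1.93 RPKM in deficient cells and 3.53 RPKM in sgVector cells. The invariant chain gene CD74 had 26 reads in deficient cells and 28 reads in sgVector cells.

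Promoter sequence is shown for the members with the widest ratios, CPVL and CTSH, and for CTSD and CTSA, whose promoters hold the letters bound by TFEB and related MiT/TFE factors, known regulators of lysosomal genes. Each runs 5′ to 3′ from 250 bases before to 50 after the gene's start, from RefSeq on GRCh38.p14, and capitals mark GTCACGTG or its reverse CACGTGAC. CPVL is shown for the farthest upstream of its 3 listed starts, at chr7:29195218-29195517 (minus strand), CTSH at chr15:78944997-78945296 (minus), CTSD at chr11:1763878-1764177 (minus) and CTSA at chr20:45891085-45891384 (plus).
CPVL: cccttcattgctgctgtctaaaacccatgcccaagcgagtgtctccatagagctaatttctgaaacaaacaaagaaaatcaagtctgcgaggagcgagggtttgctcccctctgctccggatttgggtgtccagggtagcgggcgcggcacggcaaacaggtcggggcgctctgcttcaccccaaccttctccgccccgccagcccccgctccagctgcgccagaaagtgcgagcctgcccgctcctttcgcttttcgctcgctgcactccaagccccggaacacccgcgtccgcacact
CTSH: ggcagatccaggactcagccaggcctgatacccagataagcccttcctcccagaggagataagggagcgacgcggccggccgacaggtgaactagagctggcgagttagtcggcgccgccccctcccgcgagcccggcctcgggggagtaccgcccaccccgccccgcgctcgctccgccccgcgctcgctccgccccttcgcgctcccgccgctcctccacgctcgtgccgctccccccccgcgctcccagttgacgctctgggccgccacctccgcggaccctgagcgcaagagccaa
CTSD: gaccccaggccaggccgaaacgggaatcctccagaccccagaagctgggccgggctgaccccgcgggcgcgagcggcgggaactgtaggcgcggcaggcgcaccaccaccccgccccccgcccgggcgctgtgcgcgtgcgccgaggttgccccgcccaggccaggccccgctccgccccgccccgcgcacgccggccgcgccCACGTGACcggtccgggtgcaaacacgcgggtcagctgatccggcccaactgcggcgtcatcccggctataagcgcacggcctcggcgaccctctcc
CTSA: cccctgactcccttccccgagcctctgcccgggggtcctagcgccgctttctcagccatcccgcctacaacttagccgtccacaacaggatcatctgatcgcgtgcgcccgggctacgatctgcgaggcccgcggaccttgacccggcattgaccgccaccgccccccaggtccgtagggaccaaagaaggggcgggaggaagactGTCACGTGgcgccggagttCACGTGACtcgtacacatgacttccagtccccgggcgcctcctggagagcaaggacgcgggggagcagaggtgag

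CTSD held 1 match, beginning 47 bases before its start, and CTSA held 2, beginning 44 and 25 bases before its start. CPVL and CTSH had none in these windows. The table held 9 promoters of 7 members, and 2 of the 9 held GTCACGTG on either strand, against 2.40% of 35116 promoters. CACGTG, the core that lies within it, was in the same 2, against 7.26% of all. The matches describe letters and not bound sites. CTSD and CTSA, which share the match, had ratios on opposite sides of 1, at 1.37 for CTSD and 0.801 for CTSA. TFEB itself had 3.06 RPKM in deficient cells and 3.29 RPKM in sgVector cells. TFE3, the most abundant MiT/TFE factor gene here, had 31.4 RPKM in deficient cells and 34.5 RPKM in sgVector cells. Whether these factors act on CTSD or CTSA was not tested.

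The 3 other cathepsin genes with more than a few reads, CTSO, CTSF and CTSV, had higher values in deficient cells. Of 6 genes, 2 passed the floor. Of these 1 was past 2-fold higher and 0 lower, against 3.03% and 4.69% of all genes past the floor. CTSO, a cysteine cathepsin gene of broad expression, had 9.63 RPKM in deficient cells and 4.303 RPKM in sgVector cells, a ratio of 2.24 (95% counting interval 1.895 to 2.65). Of 3 expressed neighbours of CTSO within 1 Mb, 2 were past 2-fold and the median was 1.004. CTSF had 5.35 RPKM in deficient cells and 2.88 RPKM in sgVector cells, a ratio of 1.86 (1.51 to 2.31). CTSV, the close relative of CTSL, had 69 reads in deficient cells and 42 reads in sgVector cells. CTSE, CTSG and CTSW, the last a lymphocyte gene, had 3 reads or fewer in deficient cells and 1 read or none in sgVector cells.

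**Figure D4:**
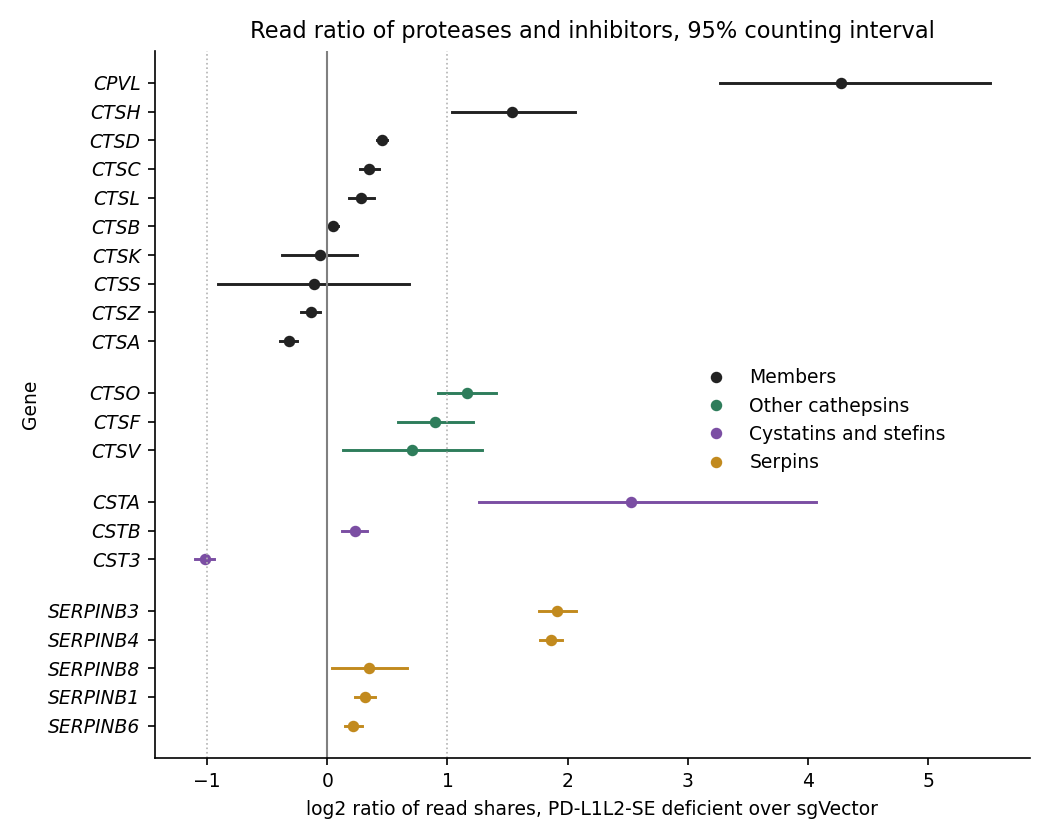
Log2 ratio of read shares, deficient over sgVector, for the 10 members and for other cathepsins, cystatins and stefins, and serpins with at least 40 reads over both libraries, with 95% counting intervals as bars and dotted lines at 2-fold. CPVL, CTSH, CTSO, CSTA, SERPINB3 and SERPINB4 lie right of the upper dotted line and CST3 on the lower one.

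Among cystatin genes past the floor, CST3 was lower in deficient cells by about 2-fold and CSTB was higher by less. CST3 encodes cystatin C, the main secreted cystatin. It had 30.5 RPKM in deficient cells and 61.9 RPKM in sgVector cells and was 2.03-fold lower (95% counting interval 1.92 to 2.15). Its log2 ratio of -1.02 was just short of 2-fold under 5 of 8 alternatives, at -0.94 with TMM scaling. The 4 expressed neighbours of CST3 were all below 0 with a median of -0.70, and 1 of them was past 2-fold. CSTB, which encodes the intracellular stefin B, had 26.2 RPKM in deficient cells and 22.4 RPKM in sgVector cells, a log2 ratio of 0.23. CSTA, which encodes stefin A, had 35 reads in deficient cells and 6 reads in sgVector cells, a ratio of 5.77 (2.40 to 16.8), under the floor. Of 9 genes in the list 2 passed the floor. Of these 0 were past 2-fold higher and 1 lower, against 3.03% and 4.69% of all genes past the floor.

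The remaining cystatins rested on few reads. CST7, which encodes the leukocyte cystatin F, had 1 read in deficient cells and 22 reads in sgVector cells, 22.2-fold lower (95% counting interval 3.59 to 918). CST1 had 2 reads in deficient cells and 11 reads in sgVector cells, and CST2 had 0 reads in deficient cells and 2 reads in sgVector cells. CST4 had 4 reads in deficient cells and 3 reads in sgVector cells. CST5 and CST6 had 0 reads in both libraries, which allows up to 3 reads in each.

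SERPINB3 and SERPINB4, the squamous cell carcinoma antigens, were higher in the deficient library. SERPINB3 inhibits cysteine cathepsins, among them cathepsin L, and SERPINB4 is known to inhibit cathepsin G. SERPINB4 had 138 RPKM in deficient cells and 38.1 RPKM in sgVector cells, a ratio of 3.63 (95% counting interval 3.41 to 3.87). SERPINB3 had 58.2 RPKM in deficient cells and 15.4 RPKM in sgVector cells, a ratio of 3.77 (3.396 to 4.197). These paralogs are very similar in sequence, so their reads may be split between them. Each had 6 expressed neighbours within 1 Mb, with a median of 0.30. These include the other gene of the pair, which is the 1 neighbour past 2-fold. Of the 7 serpin genes in the list 5 passed the floor, all above 0, with a median of 0.33. Of the 5, 2 were past 2-fold higher and 0 lower, against 3.03% and 4.69% of all genes past the floor. SERPINB1, SERPINB6 and SERPINB8 had log2 ratios of 0.31, 0.21 and 0.33.

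A list of 12 genes for the machinery that brings cathepsins to lysosomes also held PSAP and GRN, whose products are themselves carried there. Of the 12, 1 was past 2-fold higher, against 3.03% of all genes past the floor, and 0 were lower, against 4.69%. Of the 11 short of 2-fold, 8 had counting intervals that left out 1, on both sides of it. IGF2R, which encodes the cation-independent mannose 6-phosphate receptor, had 12.5 RPKM in deficient cells and 5.42 RPKM in sgVector cells, a ratio of 2.31 (95% counting interval 2.17 to 2.45). M6PR, the gene of the other such receptor, had 13.1 RPKM in deficient cells and 15.2 RPKM in sgVector cells, a log2 ratio of -0.21. The list median was 0.025. The sorting receptor gene SORT1 was next below IGF2R, at a ratio of 1.497 (1.43 to 1.56), and the adaptor gene GGA3 was the lowest, at 0.639 (0.586 to 0.698). The 7 expressed neighbours of IGF2R had a median of 0.083 and 0 past 2-fold.

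Other lysosomal genes centred near 0. The shares past 2-fold over all genes past the floor were 3.03% higher and 4.69% lower. A list of other peptidases, most of them lysosomal, had 9 genes past the floor, of which 0 were past 2-fold in either direction, with a median of -0.057. The tripeptidyl peptidase gene TPP1 was the lowest of them at -0.80, with 18.2 RPKM in deficient cells and 31.7 RPKM in sgVector cells. The list's highest value, 0.49, was that of TPP2, which encodes a cytosolic peptidase. Without TPP2 the highest was CPQ at 0.46 and the median -0.077. SCPEP1 and PRCP, serine carboxypeptidase genes related to CTSA and CPVL, stood at 0.17 and -0.16. Of 30 genes for glycosidases, lipases and sulfatases 0 were past 2-fold higher and 1 lower, with a median of -0.047. That gene was GALC, which encodes galactocerebrosidase, with 43 reads in deficient cells and 356 reads in sgVector cells, 8.37-fold lower (95% counting interval 6.09 to 11.8). GALC reached the floor only through the sgVector library, with 0.385 RPKM in deficient cells and 3.22 RPKM in sgVector cells. Its 4 expressed neighbours were below 0, with a median of -0.34 and 0 past 2-fold.

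Of 18 lysosomal membrane and transport genes past the floor 1 was higher and 1 lower past 2-fold, with a median of 0.12. Over all genes past the floor, 3.03% were higher and 4.69% lower. GPNMB, a melanosome and lysosome glycoprotein gene, had 3.91 RPKM in deficient cells and 1.14 RPKM in sgVector cells, a ratio of 3.42 (95% counting interval 2.76 to 4.26). TPCN1, an endolysosomal cation channel gene, had 22.9 RPKM in deficient cells and 51.8 RPKM in sgVector cells, 2.26-fold lower (2.17 to 2.36). The 8 expressed neighbours of GPNMB had a median of -0.20 and 0 past 2-fold. The 12 of TPCN1 had a median of -0.20 and 1 past 2-fold. All 16 V-ATPase subunit genes, whose pump acidifies the lysosome, were short of 2-fold, from -0.41 for ATP6V0D1 to 0.55 for ATP6V1B2. The 10 MiT/TFE factors and regulators past the floor were short of 2-fold as well, from -0.30 for FLCN to 0.69 for FNIP2.

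**Figure D5:**
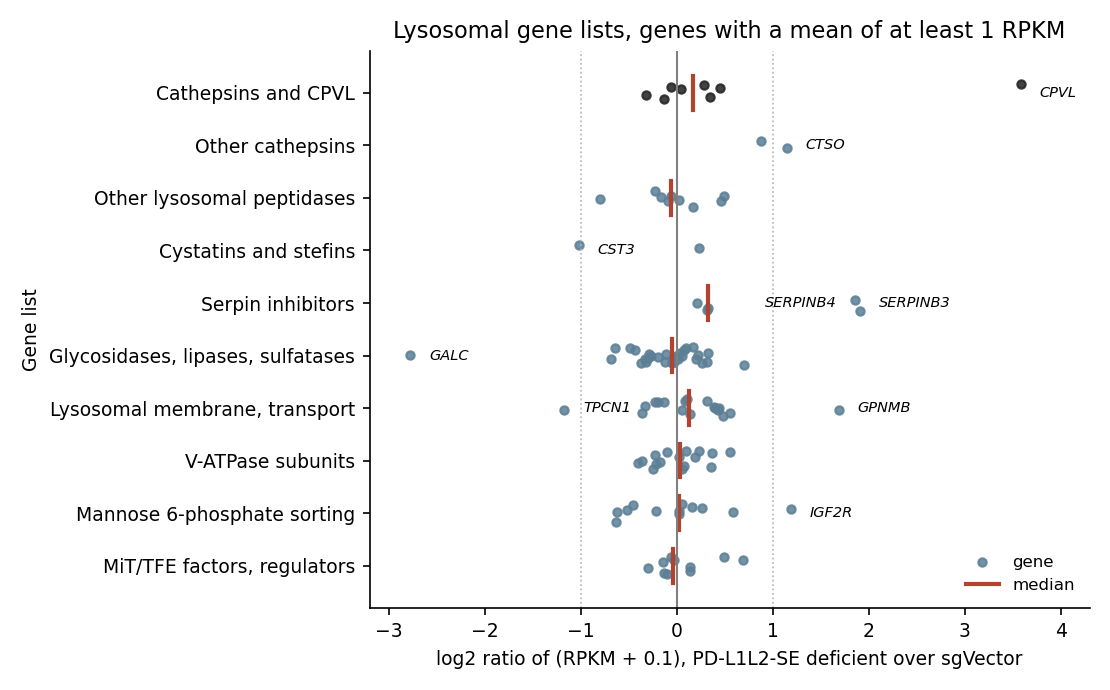
Log2 ratio of (RPKM + 0.1), deficient over sgVector, for each lysosomal list, with 1 point per gene whose mean reached 1 RPKM, with the median as a bar for lists of at least 3 such genes and dotted lines at 2-fold. Most points lie between the dotted lines, and CPVL at 3.58 and GALC at -2.78 lie farthest out. Each of these genes reached the floor only through the library where it was higher.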

How the data were processed

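RNA of 1 PD-L1L2-SE deficient and 1 sgVector library of SUM-159 cells was sequenced. The submitters' processing notes list featureCounts 1.6.4, Subread and the builds GRCh37 and hg19. The sources do not name the aligner, annotation release or strand setting. The authors deposited RPKM values beside gene lengths and exon positions. Multiplied by length, 100% of these values were whole multiples of 1 read, with a tolerance of 1e-06 reads, which gave the read numbers.

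Of 60880 rows, 93.4% matched GENCODE release 29 by identifier, used for gene type and GC content, and symbols came from a gene name table. The 41 pseudoautosomal rows of chromosome Y were left out. Log2 ratios used a pseudocount of 0.1 RPKM and understate the change of low genes. Ratios of read shares carry 95% Clopper-Pearson intervals, which like the limit of 3 reads for a value of 0 cover counting error only. No p-value was computed. Numbers past 2-fold used a floor of a mean of 1 RPKM.

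The members, the 14 gene lists (174 genes, 173 in the table, MRC1 not analysed here) and the alternatives were chosen with earlier results of these data known. Named were all members, all other cathepsins and cystatins, list genes past 2-fold or else the highest and lowest, exon-sharing and nearest genes, and the 3 genes closest to CPVL. Others were named for their role or place in a list's range after their values were seen (CD14, GLB1, NEU1, SCPEP1, PRCP, M6PR, SORT1, GGA3, CPQ, CD320, FN1, COL1A2, TFEB, CD74, HLA-DPA1, HLA-DPB1, HLA-DMB, CIITA, the serpins short of 2-fold and the line and lineage markers at or near 0). TFE3 was also named after its value was seen, and PSAP and GRN for their role as cargo. Steps were tested on simulated data. The tools were matplotlib 3.10.9, statsmodels 0.14.6, scipy 1.17.1, pandas 2.3.3 and numpy 2.4.6 under Python 3.11.15.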

Additional observations from a re-analysis of the deposited data

How the results depend on the processing

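The log2 ratios of the 10 members were recomputed with pseudocounts of 1 and 0.01 RPKM, centring, scaling by TPM, TMM or upper quartile, totals without mitochondrial genes, and a lowess correction (share 0.3) on GC content and then length. Of 80 values 14 lay outside the counting interval and 2 changed sign, CTSK with TMM scaling (0.011) and CTSZ with the GC and length correction (0.066). CPVL ranged from 1.75 to 4.19, CTSH from 0.69 to 1.52, CTSD from 0.43 to 0.70, CTSC from 0.086 to 0.42 and CTSA from -0.34 to -0.18. The number of members past 2-fold higher, 1, was 0 with a floor of 5 RPKM, which leaves CPVL out, and 2 with a floor of 0.5 RPKM or none, which lets CTSH in. The number lower was 0 throughout. The members' median of 0.16 was 0.086 with the GC and length correction, for which the cause was not tested, and 0.046 with a floor of 5 RPKM, where fewer genes enter. It was 0.28 with a floor of 0.5 RPKM, where CTSH enters, and 0.24 with TMM scaling.

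Over all genes, against 411 higher and 636 lower, a floor of 5 RPKM gave 115 and 152, one of 0.5 RPKM gave 642 and 1138, and none gave 2575 and 3711. They were 1123 and 1703 at 1.5-fold, 165 and 160 with the whole interval past 2-fold, and 222 and 219 for protein-coding genes alone. Of 82 list medians under alternatives 10 changed sign, in 4 lists whose medians lay between -0.057 and 0.025. Besides CST3, COL4A1 lost its place past 2-fold with a pseudocount of 1 (0.995). No paired analysis was possible because each group has 1 library. Depth limits CTSS, CSTA, CST7 and the sgVector value of CPVL, which rest on at most 35 reads in each of these values.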

Other observations

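Genes of extracellular matrix and other proteins taken as substrates or processing partners of cathepsins were a separate list. Of 10 such genes past the floor 1 was higher and 1 lower past 2-fold, with a median log2 ratio of -0.11. Over all genes past the floor, 3.03% were higher and 4.69% lower. COL4A1, a basement membrane collagen gene, had 4.92 RPKM in deficient cells and 1.97 RPKM in sgVector cells, a ratio of 2.499 (95% counting interval 2.24 to 2.79), and its 8 expressed neighbours were all above 0 with a median of 0.33. COL1A1, which encodes the main chain of type I collagen, a substrate of cathepsin K, had 7.32 RPKM in deficient cells and 18.6 RPKM in sgVector cells, while its 26 neighbours had a median of -0.089. COL1A2, the partner chain, had 2 reads in deficient cells and 3 reads in sgVector cells. The other 8 genes past the floor ran from a log2 ratio of -0.46 for CD320 to 0.37 for the fibronectin gene FN1.

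Among MHC class II genes under the floor, HLA-DPA1 had 59 reads in deficient cells and 8 reads in sgVector cells, a ratio of 7.30 (95% counting interval 3.47 to 17.7). HLA-DPB1 had 11 reads in deficient cells and 2 reads in sgVector cells, a ratio of 5.44 (1.19 to 50.5). HLA-DMB lay on the other side of 1, with 3 reads in deficient cells and 13 reads in sgVector cells, a ratio of 0.228 (0.0417 to 0.831). CIITA, the class II transactivator gene, had 32 reads in deficient cells and 22 reads in sgVector cells, a ratio of 1.44 with an interval of 0.811 to 2.60 that holds 1. These genes were singled out after their values were seen.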
